A study of Mus musculus with 4 samples.

Results

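CpG islands that lie outside protein-coding genes were examined in the DNA methylomes of mouse colon epithelium. A CpG island (CGI) was any run of 500-bp windows that start at a CpG and hold at least 25 CpGs, and the autosomes held 29613 of them. The genome was cut into 200-bp bins, and a bin belonged to the set when at least 100 bp of it lay in a CGI, its centre lay outside every protein-coding gene of the GENCODE M1 annotation extended by 1 kb upstream, and each library had at least 10 calls in it. A call is the reading of a single CpG cytosine in a single read as methylated or unmethylated. By this rule 42566 of 156877 autosomal CGI bins were members, from 11316 islands, and 42342 of them had the 2 CpGs needed for a test. The other 108008 CGI bins tested lay in genes or their 1 kb upstream and served for comparison, within 4076373 bins tested in all.

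Whole genome bisulfite sequencing had been made of intestinal stem cells (ISCs) and differentiated epithelial cells of the colon, from C57 mice at postnatal day 0 (P0) and day 21 (P21), the start and the end of suckling. ISCs were cells sorted for green fluorescence from the Lgr5-EGFP reporter, a knock-in in which the Lgr5 gene, a marker of crypt stem cells, also drives EGFP and Cre recombinase. Differentiated cells were EpCAM-positive cells without EGFP, so they hold every other kind of epithelial cell, and any stem cell in which the reporter was silent. Reporter mice had been crossed with wild-type C57 mice, and the DNA of pooled litters at P0 and of pooled reporter-positive offspring at P21 went into 1 library for each of the 4 groups. Whether littermates without the reporter were left out at P0 is not stated in the sources used here. If they were not, differentiated cells at P0 also hold the stem cells of those littermates. The same reporter allele and strain background were thus shared by the stem cells sorted as ISCs at both ages, while animals, pooling and library differed between ages.

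With 1 library a group there was no replicate error. Each test below compares 2 libraries, not the conditions, and every interval and floor covers counting error only, since PCR copies of a read are not separate molecules. Libraries held 1023427645 to 1188114423 calls in all, of which 50.5 to 63.7% sat at positions with over 1000 calls, more in both stem cell libraries than in the others, so the totals overstate the usable depth. Where values are paired below, ISCs come first and differentiated cells second. The median member bin was covered by 109 and 263 calls at P0, and by 120 and 199 at P21, so the stem cell libraries were the less precise. The sorted tissue was checked by methylation within 500 bp of gene starts. Starts of 6 epithelial genes (Epcam, Vil1, Cdx1, Cdh1, Krt8 and Lgr5) were between 0 and 5.34% methylated in every library, and those of 6 immune or endothelial genes (Ptprc, Cd3e, Cd79a, Pecam1, Cdh5 and Lyz2) between 48.7 and 89.2%. The smooth muscle genes were lower, Acta2 at 39.3 to 48.8% and Des at 15.3 to 19.3%. Epithelial starts held 13 to 103 CpGs, immune or endothelial starts 5 to 22, Acta2 18 and Des 70. Level thus went along with CpG number as well as cell type, so this check cannot by itself identify the sorted cells.

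CpG islands are stretches in which CpGs have not been lost from the genome by deamination of methylated cytosine. Many cover gene starts and stay free of methylation, and those far from known genes, often called orphan islands, can mark starts of noncoding RNAs, enhancers or regions bound by Polycomb. Young transposable elements can be equally rich in CpGs, yet they are usually kept methylated and silent. Bisulfite reads from an element with many near-identical copies are hard to place, and values are therefore given by the number of copies of the sequence.

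Some of the islands on which the results turn are shown first. Each 200-bp bin is written 5′ to 3′ on the forward strand of mm9 with every CpG in capitals, since the CpGs are the sites that were read. The first is a bin of the island with the most unmethylated bins, chr11:118914601-118914800, 12418 bp upstream of Cbx8, which encodes a Polycomb subunit. The second, chr4:152018201-152018400, 81009 bp downstream of Nphp4, was the single-copy bin with the most CpGs among those over 80% in all libraries. Both that follow gained methylation with age, chr5:120119001-120119200 beside the developmental regulator Tbx3 and chr15:85491401-85491600, 73912 bp upstream of Ppara, a nuclear receptor of fatty acid metabolism. The fifth, chr4:114339801-114340000, 52198 bp downstream of Gm12824, lost methylation in ISCs. The sixth, chr2:28799401-28799600, 11392 bp downstream of 1700101E01Rik, changed in opposite directions in the 2 populations. The seventh, chr9:86130201-86130400, 70540 bp downstream of Ube2cbp, lies in the island with the largest difference between populations at P0 among those named. Distances run from the centre of the nearest bin to the gene.
Cbx8 bin: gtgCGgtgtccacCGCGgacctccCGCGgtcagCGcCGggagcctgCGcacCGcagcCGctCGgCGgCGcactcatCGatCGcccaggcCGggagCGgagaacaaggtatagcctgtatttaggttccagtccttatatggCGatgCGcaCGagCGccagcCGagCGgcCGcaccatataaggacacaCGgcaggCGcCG
Nphp4 bin: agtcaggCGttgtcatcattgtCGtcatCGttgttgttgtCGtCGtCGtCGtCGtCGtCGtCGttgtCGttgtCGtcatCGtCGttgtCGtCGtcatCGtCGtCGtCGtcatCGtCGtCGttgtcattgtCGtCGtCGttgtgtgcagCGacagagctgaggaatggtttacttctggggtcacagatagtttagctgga
Tbx3 bin: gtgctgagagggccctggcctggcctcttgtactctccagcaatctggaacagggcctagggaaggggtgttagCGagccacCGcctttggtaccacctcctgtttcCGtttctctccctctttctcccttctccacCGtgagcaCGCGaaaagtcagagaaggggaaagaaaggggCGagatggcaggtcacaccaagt
Ppara bin: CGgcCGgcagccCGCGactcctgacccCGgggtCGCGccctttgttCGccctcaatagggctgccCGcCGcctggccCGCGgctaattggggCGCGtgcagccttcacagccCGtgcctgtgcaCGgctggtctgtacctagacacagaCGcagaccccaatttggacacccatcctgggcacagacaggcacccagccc
Gm12824 bin: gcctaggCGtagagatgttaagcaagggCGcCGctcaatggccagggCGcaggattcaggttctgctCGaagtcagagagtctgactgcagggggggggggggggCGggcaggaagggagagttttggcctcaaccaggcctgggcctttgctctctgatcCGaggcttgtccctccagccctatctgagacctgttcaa
1700101E01Rik bin: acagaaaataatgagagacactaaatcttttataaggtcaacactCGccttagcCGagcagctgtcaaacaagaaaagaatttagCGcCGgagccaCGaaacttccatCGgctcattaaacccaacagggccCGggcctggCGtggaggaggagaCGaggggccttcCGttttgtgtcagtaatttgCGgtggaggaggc
Ube2cbp bin: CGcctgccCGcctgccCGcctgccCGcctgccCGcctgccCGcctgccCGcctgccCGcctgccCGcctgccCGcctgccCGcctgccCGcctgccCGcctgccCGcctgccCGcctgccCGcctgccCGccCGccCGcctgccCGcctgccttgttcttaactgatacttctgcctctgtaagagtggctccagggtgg

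The 27 CpGs of the Cbx8 bin were read without a single methylated call in ISCs at P0 (0 of 359 calls, Wilson 95% interval up to 1.06%), and the level was at most 0.680% in the other libraries. In the Nphp4 bin, a run of cgt and tgt triplets with 28 CpGs, levels were 90.9% and 93.0% at P0 and 89.6% and 91.8% at P21, and no CpG was under 72.7% in any library. Bins of nearly equal CpG number thus lay at opposite ends of the range. All 7 CpGs of the Tbx3 bin were higher at P21 than at P0, in ISCs and in differentiated cells alike. So were all 17 CpGs of the Ppara bin in both populations. In the Gm12824 bin 6 of the 7 CpGs read were lower at P21 in ISCs and none was higher. The Tbx3, Ppara and Gm12824 bins were chosen as the most changed called bins of their islands. The direction of most CpGs follows from that choice in the population used for it. The 1700101E01Rik and Ube2cbp bins were chosen in the same way, by the difference between populations at P21 and at P0. The Ube2cbp bin is a tandem repeat of cgcctgcc, with an exact repeat of 132 bp.

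Most members were repeated sequence. The copy number of a bin was the median number of places on chromosomes 1 to 19 and X, on either strand, that hold its 30-base words exactly (7 words a bin). Single copy thus does not mean free of repeats, since diverged copies are not counted. The Nphp4 bin of triplets shown above counts as single copy. Of the 42342 members tested, 14818 (35%) were single copy, 2591 had 2 to 9 copies and 24933 (58.9%) had 10 or more, 9062 of these 1000 or more. Among CGI bins in genes 6.95% had 10 or more copies.

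The 30-base word most frequent in members with 1000 or more copies stood at 5823 places in the genome. It was found at a sampled place in 148 members on 19 autosomes, whose mean level was 85.8% and 84.1% at P0 and 85.8% and 86.1% at P21. It holds AAGATGGCG, letters of the YY1 motif, which were found on either strand in 41.2% of members with 1000 or more copies, in 3.50% of single-copy members and in 6.42% of all autosomal CGI bins. The ETS motif CCGGAAG was likewise found in 27.0% of the members with 1000 or more copies, against 6.12% of all CGI bins. A match describes letters, not binding. Among single-copy members AAGATGGCG stood in 16.4% of those over 80% in all libraries and in 0.320% of those under 10%. The NRF1 motif GCGCATGCG was found in 0.439% of single-copy members, in 2 of the 24933 members with 10 or more copies and in 0.492% of all CGI bins. The CTCF core AGNNGGCGC, which also matches AAGATGGCG where a C follows it, was in 8.06% of single-copy members, 9.40% of those with 10 or more copies and 8.18% of all CGI bins. The E-box CACGTG was in 4.62% of single-copy members, 3.06% of those with 10 or more copies and 4.51% of all CGI bins, and the cyclic AMP response element TGACGTCA in 0.499, 3.73 and 1.29%.

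Members were on average more methylated than CGI bins of genes, which hold fewer repeated bins. Their mean level was 66.1% and 65.8% at P0 and 66.8% and 66.4% at P21, against 17.8% and 17.7% at P0 and 18.5% and 18.3% at P21 in CGI bins of genes. Copy number divided the members, as the plot of levels shows. Single-copy members averaged 27.1% and 27.0% at P0 and 28.1% and 27.8% at P21, and 8439 of them (57.0%) were under 10% in all 4 libraries, while 2746 (18.5%) were over 80% in all 4. Members with 10 or more copies averaged 88.7% and 88.3% at P0 and 89.1% and 88.6% at P21. CGI bins of genes were divided alike, at 12.2% in ISCs at P0 where single copy and 84.2% with 10 or more copies. Single-copy CGI bins of genes over 1 kb from an annotated gene start stood at 31.0%, above the single-copy members. Of the repeated members 79.4% were over 80% in all libraries and 65 bins were under 10%, none of them with 100 or more copies. In the 4 libraries 21.6 and 21.9% of repeated members stood at 95% or more in ISCs at P0 and P21, and 14.4 and 15.7% in differentiated cells, whose bins held more calls. At 85 to 90% the order was the other way, with 21.3 and 21.5% in ISCs and 24.9 and 26.0% in differentiated cells. Levels of 10 to 80% in all libraries were found in 12.6% of the single-copy members and 3.09% of those with 10 or more copies. The mean on each chromosome went with its share of repeated members, from 49.2% in ISCs at P0 on chromosome 19, where 39.7% of members had 10 or more copies, to 74.6% on chromosome 3, where 68.4% did.

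**Figure D1:**
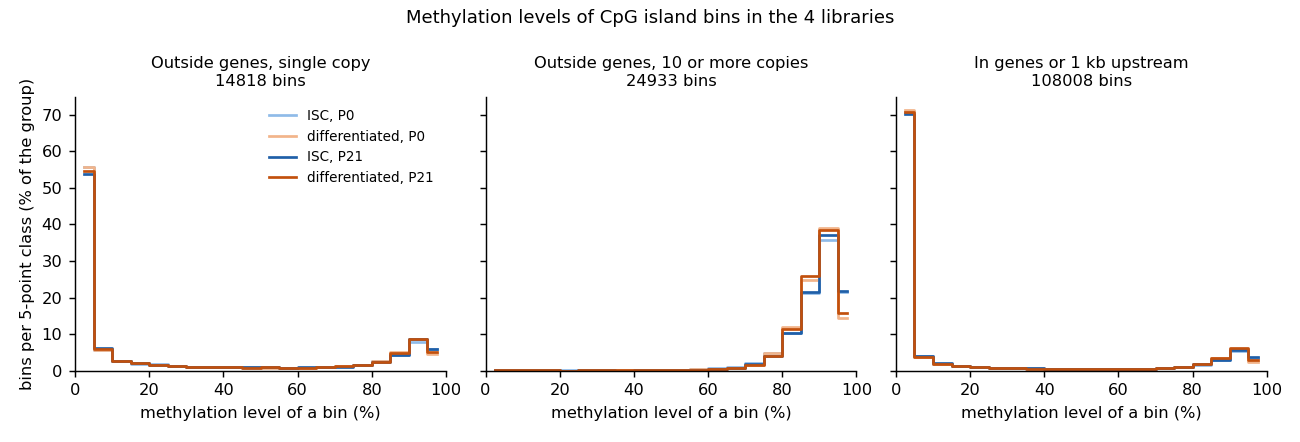
Share of bins (y axis, % of the group) in each 5-point class of methylation level (x axis, %) in the 4 libraries (lines), for single-copy members, members with 10 or more copies, and CGI bins in genes. Single-copy members pile up at the unmethylated end like the islands of genes, repeated members at the methylated end, and the 4 libraries nearly overlap except above 85%, where the repeated members of ISCs hold fewer bins at 85 to 90% and more over 95% than those of differentiated cells.

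Distance from genes went with level among single-copy members. Members 1 to 5 kb upstream of a protein-coding gene averaged 20.1% in ISCs at P0 (2475 bins), those within 5 kb downstream 33.4%, those 5 to 50 kb away 65.5% and those farther 82.9% (19273 bins, of which 79.1% had 10 or more copies). For single-copy members alone the same 4 values were 8.38, 15.8, 27.7 and 53.9%. For members with 10 or more copies they were 87.5, 87.4, 89.0 and 88.7%, a far narrower range, so the order among all members also followed the share of repeated sequence. Around noncoding genes, single-copy members within 1 kb of the start of an annotated noncoding gene averaged 17.5%. By type of the noncoding gene at or over the bin, single-copy means in ISCs at P0 were 9.96% for long intergenic noncoding RNAs (1358 bins), 11.1% for microRNAs (165 bins), 8.31% for other small RNAs (130 bins) and 47.3% for pseudogenes (504 bins), which are disabled copies of genes. Single-copy members whose nearest gene was on a list of developmental regulators (Hox, Fox, Tbx, Sox and similar families) averaged 9.13% (1844 bins), and those near other genes 29.6%.

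Base composition went with level among single-copy members. Those under 10% in all libraries had a median of 11 CpGs and 59.5% G and C a bin and lay a median of 8133 bp from the nearest protein-coding gene. Those over 80% had medians of 7 CpGs and 50% G and C, and lay a median of 56130 bp away. The 1395 single-copy members with 20 or more CpGs averaged 5.35% in ISCs at P0, the 1241 with 16 to 19 averaged 10.7% and the 2464 with 12 to 15 averaged 17.9%. The mean was higher still with fewer CpGs, 25.6% with 8 to 11 and 41.1% with 2 to 7. Over all members the order was another, with means of 12.1, 43.1, 74.2, 71.2 and 63.2% from the most CpGs to the fewest, and the share of members with 10 or more copies in these classes followed it, at 7.28, 36.3, 76.4, 66.2 and 41.6%. Members with 10 or more copies had a median of 11 CpGs and lay 96386 bp from the nearest gene.

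Whole islands gave the same division. Of 2601 single-copy islands with no bin in a gene, 1522 (58.5%) were under 10% in all libraries and 393 (15.1%) over 80%. Of the 556 that lay over 50 kb from any protein-coding gene, 232 were still under 10% in every library. The island with the most unmethylated bins was chr11:118914372-118918668, 12218 bp upstream of Cbx8, with 251 CpGs and 21 member bins at 2.5% and 1.49% at P0 and 2.30% and 1.47% at P21. The next was chr5:52503903-52507850, 33747 bp downstream of Dhx15, an RNA helicase of splicing, with 19 bins at 0.527 to 1.31%. The islands with the most methylated bins were chr3:6297410-6307756, 307712 bp from the nearest protein-coding gene, 1700008P02Rik, and chr10:27538170-27545729, 201553 bp upstream of Lama2. Their 52 and 38 bins had a median of 2217 and 2893 copies, and both islands stood between 91.2 and 92.4% in every library.

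Between P0 and P21 more members gained methylation than lost it, in both cell populations. In ISCs 469 members rose and 177 fell, that is 1.11% and 0.418% of those tested, where a bin was called at an adjusted p below 0.05 (two-sided Fisher's exact test, Benjamini-Hochberg over all autosomal bins) and a difference over 15 percentage points. Over all autosomal bins there were 1.07% that rose and 1.48% that fell. In differentiated cells 376 members rose and 135 fell (0.888% and 0.319%), against 0.992% that rose and 1.86% that fell over all bins. The share of members that rose was thus close to the background in both populations, and the share that fell was below it. In CGI bins of genes 1.48% rose and 0.379% fell in ISCs. The mean of all members moved by 0.672 points in ISCs and 0.539 in differentiated cells, upward on all 19 autosomes in both. The autosomes come from the same libraries, so they are not replicates. CGI bins of genes moved alike, by 0.700 and 0.606 points, and all autosomal bins by -0.271 and -0.723 points. With every call weighted equally, so that deeply read bins count for more, the direction in members turned. Their level went from 56.2 to 55.3% in ISCs and from 52.9 to 52.2% in differentiated cells. Each library was weighted by its own calls, so this level also moves where depth shifts between bins. In ISCs median calls went from 229 at P0 to 270 at P21 in members with 20 or more CpGs. In those with 10 or more copies they went from 89 to 98. These classes stood at 12.1 and 88.7% in ISCs at P0, and their mean change per bin was 0.814 and 0.443 points. The part of depth in the turn was not tested.

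Gains were more frequent in single-copy members than in those with 10 or more copies. Among single-copy members 294 bins rose and 96 fell in ISCs (1.98% and 0.648%), and 270 and 72 in differentiated cells (1.82% and 0.486%). Of the 2591 members with 2 to 9 copies 48 rose (1.85%) and 14 fell in ISCs, and 17 (0.656%) and 9 in differentiated cells. Of the 24933 members with 10 or more copies 127 rose (0.509%) and 67 fell in ISCs, and 89 (0.357%) and 54 in differentiated cells. Over all autosomal bins 1.07% rose in ISCs and 0.992% in differentiated cells. CGI bins of genes were split alike by copies. Of those with a single copy 1.54% rose in ISCs and 1.40% in differentiated cells, and with 10 or more copies 0.586 and 0.506%. The median size of a called change was 23.3 points in single-copy and 22.2 in repeated members in ISCs.

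**Figure D2:**
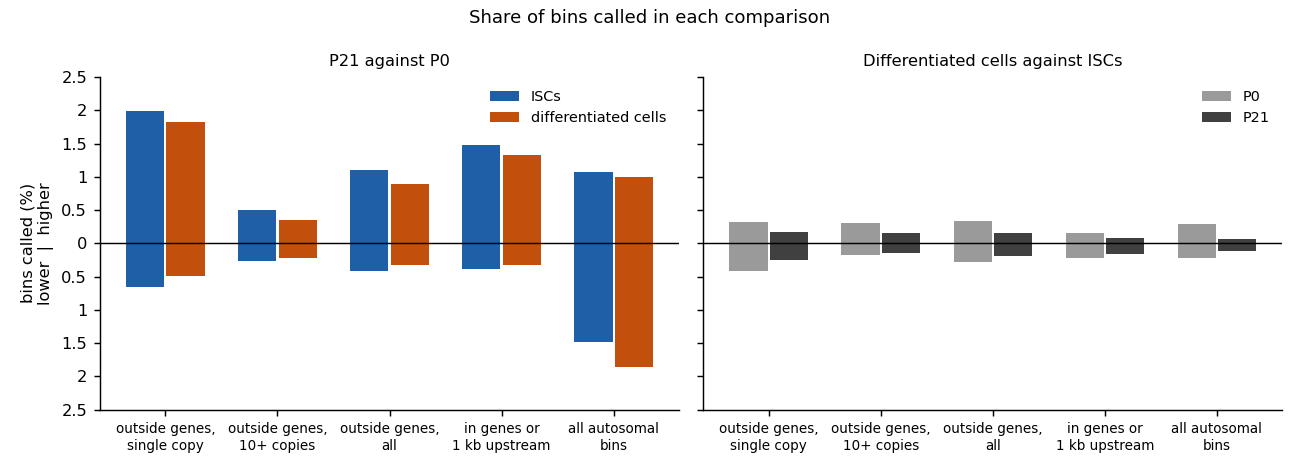
Share of bins called higher (upward bars) or lower (downward bars, both in %) with age in either population (left) and in differentiated cells against ISCs at P0 and P21 (right), by class of bin (x axis). With age, gains exceed losses in each class of CpG island bin, single-copy members have the tallest upward bars, and losses exceed gains over all autosomal bins.

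The comparisons of age in ISCs and in differentiated cells use separate libraries, so each can be read against the other, although the populations of an age may have come from the same pools of mice, which the sources used here do not state. Of the 646 members called in ISCs, 170 (26.3%, exact 95% interval 23.0 to 29.9%) were called in the same direction in differentiated cells, which is 33.3% of the calls there, and 6 in the opposite direction. Over all autosomal bins 36.3% of the calls in ISCs were repeated. Among single-copy members 157 of 390 (40.3%) were repeated and 3 reversed. Among members with 10 or more copies 9 of 194 (4.64%) were repeated and 3 reversed. Of 294 single-copy gains in ISCs 137 (46.6%) were also called as gains in differentiated cells, and of 96 losses 20 (20.8%) as losses, a difference that was not tested. CGI bins of genes had the same order, with 50.4% of gains and 28.1% of losses repeated. All autosomal bins had the opposite order, with 23.8% of gains and 45.4% of losses repeated. At the single-copy bins that rose in ISCs the median change in differentiated cells was 14.9 points, and at those that fell -3.36 points. In repeated members these medians were 2.48 and 0.0830 points. CGI bins of genes came back in 45.8% of their calls in ISCs. The part that copy number plays in this difference was not tested.

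**Figure D3:**
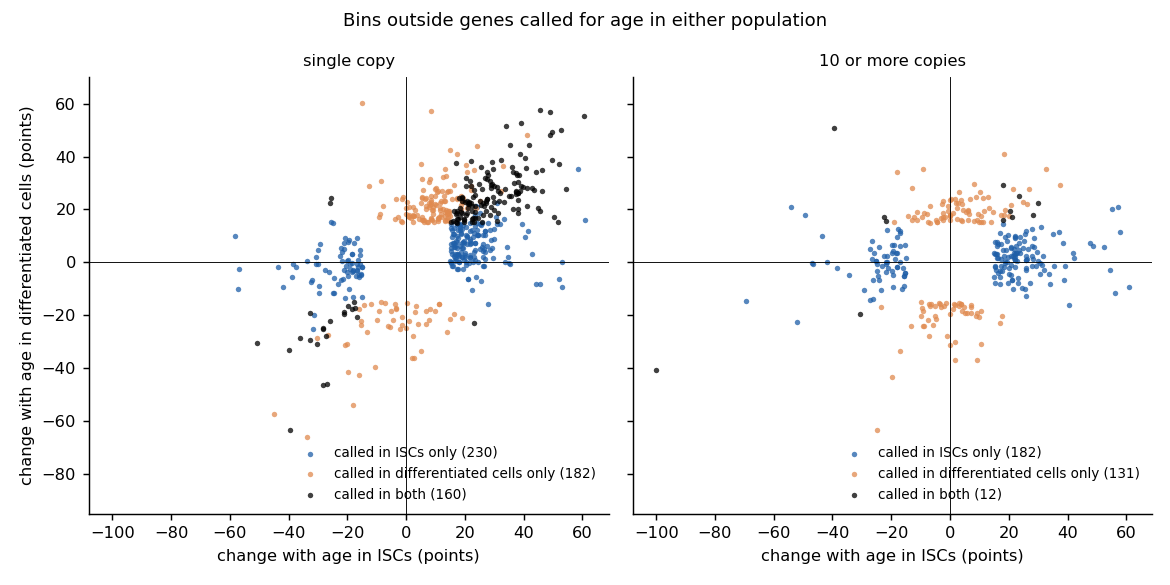
Change with age in ISCs (x axis, points) against change in differentiated cells (y axis, points) of members called in either population, for single-copy members (left) and members with 10 or more copies (right). Single-copy bins called in both populations (black) lie mainly in the upper right, where both rose, and repeated bins spread along the axes with few called in both. The empty band around 0 follows from the 15-point limit.

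Calls for age were most frequent at intermediate levels. To class bins by level without using the libraries compared, changes in ISCs were grouped by the level in differentiated cells at P0, and changes in differentiated cells by the level in ISCs at P0. Of the 1725 single-copy members at 10 to 50%, 10.3% rose and 2.90% fell in ISCs. Of the 911 at 50 to 80%, 6.59% rose and 3.29% fell. Under 10% these shares were 0.417 and 0.0769% of 9105 bins. Differentiated cells followed the same order, with 9.90% rising at 10 to 50%, 6.90% at 50 to 80% and 0.308% under 10%. Over all autosomal bins at 10 to 50% 5.16% rose and 6.13% fell in ISCs, and at 50 to 80% 1.86 and 2.76%. In CGI bins of genes these shares were 12 and 2.62% at 10 to 50%, and 8.95 and 2.92% at 50 to 80%. The excess of rising over falling calls at these levels was thus also seen in CGI bins of genes, at higher shares rising than in single-copy members, and was not seen over all bins. Of repeated members at 10 to 50%, equal numbers rose and fell in ISCs, 11 and 11 of 213 bins, but at 50 to 80% 52 and 19 of 2106 rose and fell. In differentiated cells 9 and 5 repeated members rose and fell at 10 to 50%, and 47 and 17 at 50 to 80%. The plot by level class gives these shares. Bins near 0 or 100% can move by over 15 points in 1 direction only, which limits the outer classes.

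**Figure D4:**
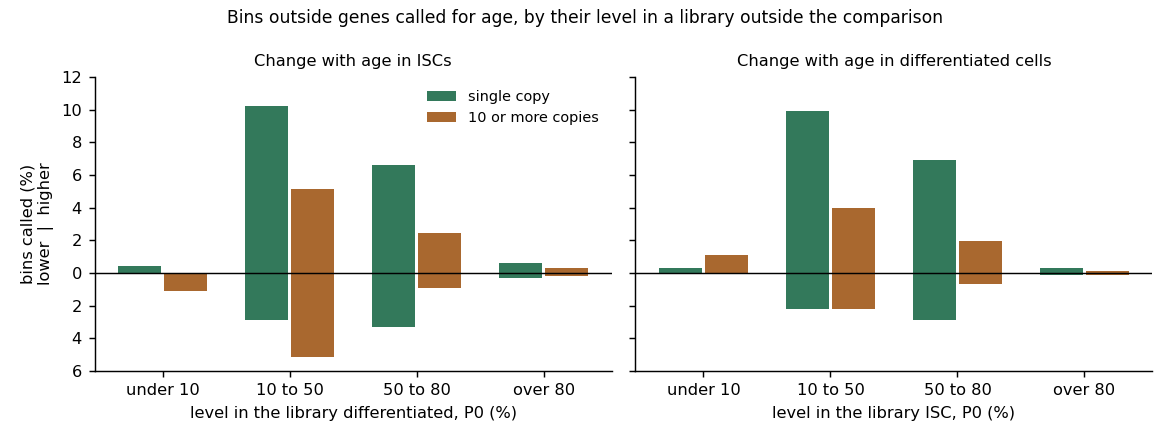
Share of members called higher (upward bars) or lower (downward bars, %) with age, by the level class (x axis, %) in a library that takes no part in the comparison, for single-copy members and members with 10 or more copies. Members at 10 to 50% were called most often in both populations, and the repeated members under 10% number 92 in either panel, so 1 bin makes each bar there.

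The rate of gain differed with position, and part of the rising bins lay in a few islands. In ISCs 3.44% of single-copy members inside noncoding genes rose, against 1.91% at noncoding starts and 1.47% over 50 kb from protein-coding genes, and in differentiated cells the 3 shares were 3.13, 1.54 and 1.28%. Of the 33 rising bins inside noncoding genes in ISCs, 15 lay in the 6 islands with the most rising bins, described below, and without those islands the 3 shares were 1.92, 1.65 and 1.47% in ISCs and 1.70, 1.28 and 1.28% in differentiated cells. Of CGI bins of genes within 1 kb of an annotated gene start 0.589% rose in ISCs, and farther into genes 3.07%, above the share in single-copy members. Of single-copy members at or over microRNA genes, 4.85% of 165 rose in ISCs, or 8 bins, of which 5 lay in the Mir219-2 island described below, and none of 130 at other small RNAs were called in either population. Single-copy members nearest to developmental regulators rose in 2.49% in ISCs and 2.11% in differentiated cells, against 1.91 and 1.78% near other genes. Of these 46 and 39 bins near developmental regulators, 19 and 18 lay in islands at Tbx3, Foxa1 and Foxa2. Without the 6 islands the shares were 1.48 and 1.15% near developmental regulators and 1.84 and 1.71% near other genes. That turn of the order came with a choice made on the same rises, so nothing is concluded from it. Counted by island, 4.81 and 3.94% near developmental regulators had a rising bin, against 3.95 and 3.58% near other genes. These shares are descriptions, since bins of an island are not independent.

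Calls were spread over many islands. The 469 bins that rose in ISCs lay in 362 islands, 291 of them with a single called bin and 22 with 3 or more. With the calls of an island's member bins summed and tested as a whole (Benjamini-Hochberg over 30157 island pieces, inside and outside genes), 107 of 11309 islands rose and 41 fell in ISCs, against 1.10 and 0.338% of all pieces. In differentiated cells 77 rose and 18 fell, against 0.899 and 0.159%. CpGs of an island share reads, so these p-values are too small and the 15-point limit carries the call.

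Of the 6 islands with the most rising bins in ISCs, 4 lay beside Tbx3, Foxa1 or Foxa2. The first, chr5:120118024-120119157, lies 1577 bp upstream of Tbx3, a T-box transcription factor of organ development, and lies in the noncoding gene Gm2301. Its 6 bins together stood at 26.8% and 36% at P0 and 73.2% and 61.9% at P21 (746 to 1995 calls a library). In both populations the Wilson intervals of the 2 ages were apart, which in ISCs follows largely from choosing the island by its rising bins. All 6 bins rose in ISCs and 5 in differentiated cells, and the island as a whole rose by 46.4 points (adjusted p = 4.3e-86) and 25.9 points (adjusted p = 5.4e-54), by Fisher's exact test on 2 libraries here and below. The remaining bin, chr5:120118401-120118600, had 42 to 69 calls a library and stood at 58.2% and 50% in differentiated cells. A second island, chr5:120136856-120138383, 2168 bp downstream of Tbx3 and in the lincRNA gene Gm16065, was at 42.5% and 39.7% at P0 and 57.8% and 57.9% at P21. It had 5 rising bins in each population, and its bins were far apart in level, from 8.33% at chr5:120137001-120137200 to 78.3% at chr5:120138201-120138400 in ISCs at P0.

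Islands next to both forkhead genes Foxa1 and Foxa2, pioneer factors of gut endoderm, rose in both populations. The island chr12:58650935-58651784, 3993 bp upstream of Foxa1, stood at 36.6% and 31.1% at P0 and 86.0% and 81.6% at P21 (1099 to 1889 calls a library). It rose by 49.4 points in ISCs and 50.5 in differentiated cells (Fisher's exact test, adjusted p = 1.7e-133 and 7.1e-206), the largest changes with age among the named islands, with all 4 bins called in both. Both P21 levels lay far above both P0 levels, which in ISCs follows largely from the choice by rising bins. The island chr2:147863924-147864849, 3912 bp downstream of Foxa2 in the noncoding gene 9030622O22Rik, went from nearly unmethylated to intermediate, at 7.70% and 11.5% at P0 and 42.6% and 43.5% at P21. It rose by 34.9 and 32.0 points (Fisher's exact test, adjusted p = 1.4e-67 and 9.5e-89). Within it the bin chr2:147864401-147864600 went from 2.30 to 40.6% in ISCs (261 and 278 calls).

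Further gains lay farther from genes of known role. The island chr2:17960993-17961973, in the noncoding gene Gm13330 and 402 bp downstream of 2810030E01Rik, stood at 25.2% and 17.3% at P0 and 56.1% and 52.4% at P21, and 4 of its 5 bins rose in each population. The other bin, at its left edge, was already at 93.4% in ISCs at P0. The island chr15:85490931-85491887, 73712 bp upstream of Ppara, stood at 34.1% and 26.7% at P0 and 64.3% and 63.5% at P21 and had 2 rising bins in ISCs and 4 in differentiated cells. The island chr11:120086499-120087174, 7160 bp upstream of Bahcc1, which encodes a chromatin protein, stood at 50.1% and 47.7% at P0 and 84.2% and 78.0% at P21, with all 4 bins rising in both. The island chr17:48168237-48169131, 57481 bp upstream of 1700067P10Rik, stood at 25% and 15.6% at P0 and 42.5% and 41.9% at P21. In these 4 islands both P21 levels lay above both P0 levels, and the Wilson intervals of the 2 ages did not overlap within a population. They were chosen by rising bins in ISCs or in differentiated cells, so in that population the separation follows largely from the choice.

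Losses were fewer, and the 4 islands with the most falling bins in ISCs had at most 1 bin called in differentiated cells. The island chr4:114338897-114339952, 51198 bp downstream of Gm12824, stood at 26.5% and 14.1% at P0 and 4.90% and 9.24% at P21 (805 to 2645 calls a library). Only in ISCs at P0 was it over 20%, and 5 of its 6 bins fell in ISCs while none was called in differentiated cells. The whole island fell by 21.6 points in ISCs, and its change was -4.82 points in differentiated cells. The difference of the 2 changes, 16.7 points, passed its own test (Woolf's test, described further on). The island chr11:96175595-96176657, 1497 bp upstream of the homeobox gene Hoxb4, stood at 33.2% and 33.7% at P0 and 17.0% and 26.6% at P21, and 3 bins fell in ISCs and 1 in differentiated cells. The island chr6:129183958-129184834, in the lincRNA gene 2310001H17Rik near Cd69, was read less deeply (146 to 288 calls a library) and stood at 50.7% and 58.0% at P0 and 33.3% and 39.3% at P21, with 2 bins falling and 1 rising in ISCs. As a whole it fell in both populations, by 17.4 and 18.7 points (Fisher's exact test, adjusted p = 0.0224 and 0.00125). The last of these, chr5:64429071-64429690, 54674 bp upstream of Pgm1, had a median of 126 copies and 86 to 164 calls a library. It stood at 46.5% and 26.3% at P0 and 12.1% and 29.9% at P21. Its changes in the 2 populations differed by 38.0 points, past the same test. The 4 islands were chosen by falling bins in ISCs, and the test uses the same ISC libraries. A larger fall in ISCs than in differentiated cells is thus favoured by the choice.

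In differentiated cells the 2 further islands with the most falling bins held a tandem stretch or many copies. At chr2:166189865-166190665, 201341 bp downstream of Prex1, levels were 87.5% and 85.3% at P0 and 82.6% and 55.6% at P21, and its most changed bin had 34 bp of exact tandem repeat and 12 calls in ISCs at P21. At chr8:80670479-80671225, 66095 bp upstream of Ttc29 and with a median of 26.5 copies, levels were 79.7% and 86.2% at P0 and 67.6% and 44.7% at P21. In both islands the library of differentiated cells at P21 stood apart below the other 3, which follows largely from the choice by falling bins there. The plot of named islands shows the gains and losses side by side.

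**Figure D5:**
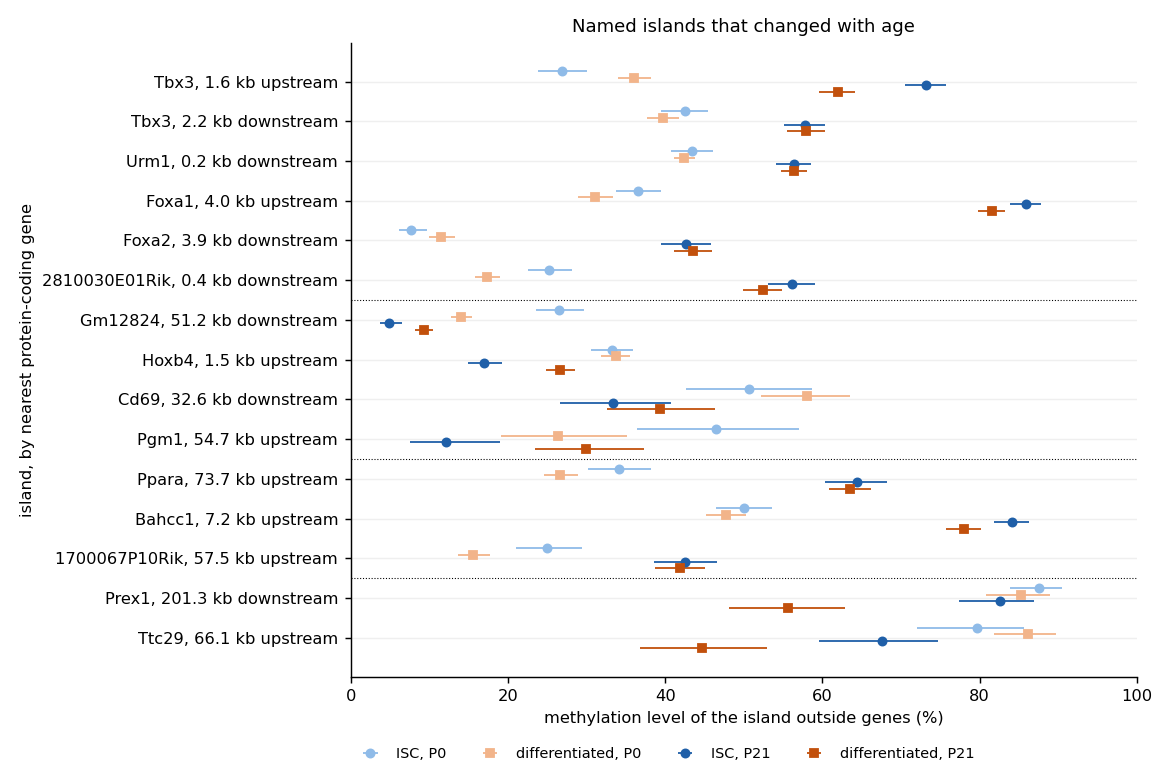
Methylation level (x axis, %) of the 15 named islands with the most bins called for age, in the 4 libraries (points) with Wilson 95% intervals (bars), by nearest protein-coding gene and the distance of the nearest bin centre (y axis). From the top, dotted lines divide gains in ISCs, losses in ISCs, further gains in differentiated cells and losses there. In every gain both P21 points lie right of both P0 points, and in the losses 1 library often stands apart. The islands were chosen by called bins in these libraries, so a separation of the ages follows largely from the choice.

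Starts of the listed noncoding RNAs were mostly unmethylated. Over all annotated noncoding starts 54.6% of 2588 member bins were under 10% in all libraries, and 19.4% were over 80%. A start is here the annotated 5′ end of a gene. Of 28 listed noncoding genes in the annotation 12 had a member within 1 kb of the start, and of 40 listed microRNA genes 16. Only Tug1, Mir219-2, Mir193b, Mir1247, Mir34b and H19 reached 10% in any library. Some entries share bins, such as Mir132 and Mir212. The bins of Mir34c, at 1.13% in ISCs at P0, lie within those of Mir34b, at 12.2%. Malat1 and Neat1, abundant nuclear RNAs, Pvt1, the host gene Mir17hg and Dleu2 stood below 2% in every library, and so did Mir203, Mir137, Mir129-2, Mir148a, Mir132, Mir212 and Mir124a-3. H19, an imprinted RNA expressed from the maternal copy, stood at 51.7% and 43.3% at P0 and 50.4% and 48.1% at P21, with no bin called. Mir219-2, Mir1247, Mir193b and Mir210 were the listed genes with a bin that rose in ISCs. A mature microRNA of each follows, the arm usually taken as the guide strand, from RefSeq (GRCm38.p6 tables, RNA letters, 5′ to 3′) with the seed, bases 2 to 8, in capitals. The opposite arms of Mir1247, Mir193b and Mir210 are not shown. 14 of the 16 genes were matched there by symbol or synonym.
miR-219a-5p: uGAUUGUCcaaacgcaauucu
miR-1247-5p: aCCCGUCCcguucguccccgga
miR-193b-3p: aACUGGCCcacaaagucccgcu
miR-210-3p: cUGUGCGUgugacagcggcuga

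No seed was shared among the 4 shown. The island chr2:29700473-29702296 over the Mir219-2 gene, whose microRNA is known from the maturation of oligodendrocytes, lies 179 bp downstream of Urm1 and reaches into that gene. Its 8 bins outside stood at 43.4% and 42.4% at P0 and 56.4% and 56.4% at P21 (1321 to 5001 calls a library). The 5 bins from chr2:29700601 to 29701600 rose in both populations, by 16.8 to 28.6 points in ISCs and 17.9 to 23.2 in differentiated cells, while none of the 3 bins after them was called for age in either population. In the first of these, chr2:29701601-29701800, the 2 changes differed by 19.5 points and that difference was called by Woolf's test. The whole island moved by 13.0 and 14.0 points, under the 15-point limit. Members at the Mir1247 start stood at 19.4% and 13.5% at P0 and 27.7% and 28% at P21, with 1 of 3 bins called in ISCs and 2 in differentiated cells. Those at Mir193b stood at 7.02% and 4.92% at P0 and 17.5% and 13.3% at P21, with 1 bin called in ISCs and none in differentiated cells. At Mir210, whose microRNA answers to low oxygen, the level went from 0.632 to 5.67% in ISCs and was 4.71% in differentiated cells at P21, 2.75 points above P0. There 1 of 5 bins rose in each population. Tug1 had 1 member with 28 to 57 calls at 7.14% and 26.5% at P0 and 23.5% and 28.1% at P21, and no call was made. Of the other listed starts among the 12 with the largest change in ISCs, Mir34b, Miat, Snhg4, Mir196a-2, Mir124a-1 and Snhg7, none had a called bin, and their changes in ISCs ran from -1.74 to 2.41 points.

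Between ISCs and differentiated cells of the same age fewer members were called than between ages, an order that rests on the test, since by the 15-point limit alone age in ISCs had 2045 bins, age in differentiated cells had 1064 bins and the populations 1231 at P0 and 1149 at P21. At P0 144 members were higher and 119 lower in differentiated cells (0.340 and 0.281%), against 0.288 and 0.220% of all bins. Single-copy members had the opposite order, 48 higher and 61 lower, and members with 10 or more copies had 77 and 42. With each bin thinned to its lowest library there were 73 calls at P0 in place of 263, and 44 at P21 in place of 151. At P21 without thinning 69 were higher and 82 lower (0.163 and 0.194%), against 0.0711 and 0.111%. Counts of called islands were 20 higher and 35 lower at P0 (background 0.109 and 0.242% of all pieces) and 27 and 29 at P21 (background 0.139 and 0.209%). The 2 ages use separate libraries. Of 263 calls at P0, 11 (4.18%) were made in the same direction at P21 and 6 in the opposite direction, and single-copy members did so in 5 and 2 of 109 calls. Over all autosomal bins 182 of 20700 calls at P0 (0.879%) were repeated in the same direction, and 153 were made in the opposite direction.

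Among the 11 bins called alike at both ages, 6 had 10 or more copies, where 58.9% of all members tested did. A tandem repeat of at least 30 bp was held by 3 of them, and by 1.35% of all members. The largest difference at P0 was in the tandem repeat near Ube2cbp shown above, at 31.0% and 96.4% at P0 and 60.9% and 97.1% at P21. At P21 chr9:33535601-33535800 (33.8% and 65.0% at P0 and 38.9% and 87.5% at P21) and chr3:43884601-43884800 (32.1% and 64.2% at P0 and 15.8% and 62.5% at P21) differed by more. In ISCs at P21 the chr9 bin had only 18 calls and the chr3 bin 57. Of the single-copy bins, chr6:7933401-7933600, 14307 bp from Col28a1, a collagen gene, was the most deeply read (397 to 549 calls a library), at 45.8% and 77.4% at P0 and 61.4% and 80.5% at P21. The bin chr19:47226401-47226600, 7837 bp from Calhm1, was lower in differentiated cells, at 42.6% and 25.5% at P0 and 38.9% and 22.2% at P21. So was chr11:99793401-99793600, 4104 bp from the keratin-associated gene Krtap31-2, at 59.2% and 32.1% at P0 and 46.8% and 30.5% at P21. Neighbouring bins at chr4:89542601-89543000, in repeated sequence 181238 bp from Dmrta1, were higher in differentiated cells at both ages by 20.3 and 23.3 points at P0. In each of these bins both stem cell levels lay on the same side of both differentiated levels. That follows largely from the choice of bins called alike at both ages.

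The islands with the most bins called between populations held 2 such bins each. Near Epas1, the hypoxia factor HIF-2 alpha, the island chr17:87119389-87120229 was at 83.6% and 48.8% at P0 and 75.9% and 49.5% at P21, lower in differentiated cells by 34.8 points at P0 and 26.4 at P21 (Fisher's exact test, adjusted p = 3.3e-12 and 4.7e-05). Its most changed bin is a run of ca and cg pairs read at 28 to 168 calls. In the histone gene cluster, chr13:21904629-21906327, 885 bp downstream of Hist1h4m and with a median of 41 copies, was at 70.8% and 53.3% at P0 and 69.9% and 63.8% at P21. The island chr5:85182831-85183369 (486 copies) was at 65.4% and 74.4% at P0 and 80.4% and 82.5% at P21, and chr7:144607596-144608383 (206 copies) at 93.6% and 83.5% at P0 and 68.4% and 94.6% at P21, apart in ISCs at P21. In the pseudogene Gm10698, chr9:33535492-33536341 was at 69.3% and 60.8% at P0 and 66.3% and 79.2% at P21. The single-copy island chr2:28799321-28799988, whose bin is shown above, stood at 27.3% and 34.9% at P0 and 52.5% and 35.6% at P21. In the bin chr2:28799401-28799600 the level rose from 14.2 to 37.2% with age in ISCs, at 11 of 11 CpGs, and fell from 36.9 to 13.8% in differentiated cells, at 11 of 11 (adjusted p = 9.2e-05 and 3.7e-05, Fisher's exact test). The 2 changes differed by 46.1 points, past Woolf's test. This bin was chosen as the most changed bin of its island called between populations at P21. Both P21 libraries enter the changes with age, so opposite directions and their difference are favoured by that choice.

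Tandem repeats were few among members. An exact repeat of at least 30 bp with a unit of 1 to 10 bases was found in 571 members (1.35%). Of these 3.15% were called between populations at P0 and 2.80% at P21, against 0.587 and 0.323% of the other members. With age 3.33% were called in ISCs and 3.50% in differentiated cells, against 1.5 and 1.18%. Among single-copy members the shares with and without such a repeat were 2.34 and 2.64% for age in ISCs, 3.80 and 2.27% for age in differentiated cells, 1.75 and 0.712% between populations at P0, and 2.92 and 0.366% at P21. CGI bins of genes showed the same order between populations. Their shares with and without such a repeat were 1.32 and 0.369% at P0, and 1.06 and 0.225% at P21. Of the 170 members called alike for age in both populations 1 held such a repeat.

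The change with age was itself compared between ISCs and differentiated cells. Woolf's test of the difference of the 2 log odds ratios, adjusted over all bins and with the same 15-point limit, called 52 members in which the change was more positive in differentiated cells and 71 in which it was more positive in ISCs (0.123 and 0.168%), against 0.0503 and 0.0933% of all bins. In the Tbx3 island the gain in ISCs exceeded that in differentiated cells by 20.5 points and the difference was called, although both rose. That island was chosen by its rising bins in ISCs, which favours such a difference. Near Btg2, an antiproliferative gene, the bin chr1:135959801-135960000 rose from 13.5 to 54.9% in ISCs, and stood at 27.9 and 39.8% in differentiated cells, a change of 11.9 points under the limit. Its neighbour chr1:135960001-135960200 fell from 23.3 to 6.54% in ISCs and stood at 12.7 and 22.0% in differentiated cells. Near Fbrsl1, chr5:110909601-110909800 rose from 20.1 to 48.6% in ISCs and chr5:110910001-110910200 fell from 50.6 to 29.8%, while differentiated cells stayed between 21.9 and 36% in both bins.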

How the data were processed

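Whole genome bisulfite sequencing was analysed in 4 libraries, 1 each of ISCs and differentiated colon cells at P0 and P21, grouped by the labels. The authors trimmed paired reads and aligned them to mm9, and the submitters' processing notes name Bismark and Bowtie (their versions and any removal of duplicates: not given in the sources used here). The deposited values are counts of all and of methylated calls at each cytosine, with the authors' fraction of methylated calls, which was used only as a check. Calls at CpGs were summed over both strands in 200-bp bins. Islands, positions and gene distances came from the mm9 sequence and GENCODE M1. Bins needed 10 calls in each library and 2 CpGs.

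Summed calls of each bin were compared with Fisher's exact test (two-sided), and changes with age between populations by Woolf's test with 0.5 added to each count, each with Benjamini-Hochberg adjustment over all autosomal bins. Calls of a bin share reads, so p-values are too small. Called bins also differed by over 15 points. Scripts used Python 3.11.15, numpy 2.4.6, pandas 2.3.3, scipy 1.17.1, numba 0.67.0 and matplotlib 3.10.9, and were tested on simulated data. Libraries held 1023427645 to 1188114423 calls in all, and Wilson 95% intervals give the counting error of a level.

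Named islands were the 6 gaining and 4 losing with the most called bins for age in ISCs, 3 and 2 more for differentiated cells, 2 higher and 2 lower between populations at each age, 3 for the difference of the changes, up to 12 at listed noncoding starts, and the 2 with the most bins under 10% and the 2 with the most over 80%, with ties going to the larger mean difference. Other bins named were chosen after their values were seen, as was the 30-bp limit for tandem stretches. Members and lists were chosen with earlier results of these data known. The alternatives varied the minimum of calls and CpGs, the difference, the definition of islands and of positions outside genes, depth, bin offset, chromosome X and repeated sequence.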

Additional observations from a re-analysis of the deposited data

Results flagged for a closer look

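The change with age differed between ISCs and differentiated cells, by Woolf's test of the difference with Benjamini-Hochberg adjustment over all bins, in 123 members. In the island upstream of Tbx3 the change in differentiated cells minus that in ISCs was -33.2 points at chr5:120118601-120118800 and -24.2 points at chr5:120118801-120119000. In the island near Btg2 it was -29.5 points at chr1:135959801-135960000 and 26.1 points at chr1:135960001-135960200. In the island near Fbrsl1 it was -24.0 points at chr5:110909601-110909800 and 30.2 points at chr5:110910001-110910200. In the Btg2 and Fbrsl1 islands the difference thus had opposite signs in bins of the same island.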

How the results depend on the processing

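More members were called higher than lower with age in both populations under every setting run. The mean level turned from a rise to a decline with age when calls were weighted equally, each library by its own depth. Each value depends on 1 library a group, so the spread between animals is unknown, and bins of few calls or many copies are the least certain. No paired analysis was possible because the groups compared share a single replicate number, with 1 library each. Leaving out bins by soft-masked repeats was planned and not run, since the reference carries no soft-masking, and leaving out bins of 10 or more copies, or with a tandem stretch, was chosen after seeing the data in its place.

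Mean levels are listed as ISCs and differentiated cells at P0, then ISCs and differentiated cells at P21. They were 56.2, 52.9, 55.3 and 52.2% with all calls weighted equally and 87.5, 87.2, 88.0 and 87.5% as medians of bins. With CGIs of at least 35 CpGs they were 40.7, 40.4, 41.7 and 41.3%, with CGIs set by base composition 49.4, 49.1, 50.2 and 49.9%, and with whole bins in a CGI 64.7, 64.4, 65.4 and 65.0%. They were 72.5, 72.2, 73.1 and 72.6% at 5 kb or more from protein-coding genes, 69.4, 69.1, 70.1 and 69.6% outside all annotated genes, and 68.3, 68.0, 68.9 and 68.5% without islands that reach into a gene. Without bins of 10 or more copies they were 33.9, 33.7, 34.9 and 34.5%. A minimum of 20 calls gave 65.3, 65.1, 66.0 and 65.6%, of 40 calls 63.8, 63.5, 64.5 and 64.1% and of 4 CpGs 66.3, 66.0, 67 and 66.6%. They were 66.7, 66.4, 67.4 and 67% without bins over 1000 calls and 67.3, 67, 68.0 and 67.5% with chromosome X. Shifting bins by 100 bp gave 66.1, 66.8 and 66.3% for ISCs at P0 and both populations at P21. Thinning each bin to its lowest library gave 65.9% for differentiated cells at P0. The cause of these moves was not tested beyond what each setting leaves out.

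Counts of called members are listed as age in ISCs, age in differentiated cells, populations at P0 and populations at P21. Against 646, 511, 263 and 151 they were 176, 134, 75 and 44 with CGIs of 35 CpGs and 358, 290, 139 and 84 with CGIs by composition, both with fewer bins. A limit of 30 points gave 156, 90, 49 and 27, and 15 points with no test gave 2045, 1064, 1231 and 1149. Thinning gave 287, 73 and 44 for the last 3. Without bins of 10 or more copies the populations differed in 144 bins at P0 and 79 at P21. Differences between the changes with age, 123 bins, became 80 without those bins, 191 with at least 4 CpGs, 55 over 30 points, 2907 with no test and 36 after thinning. The share of ISC calls for age repeated in differentiated cells, 26.3%, became 35.6% without bins of 10 or more copies, 19.2% over 30 points, 15.6% with no test and 22.7% after thinning. With no test 8.69% of the calls between populations at P0 were repeated at P21. Called islands over 30 points numbered 28 and 17 with age in the 2 populations, and 4 and 4 between populations at P0 and P21. The share of calls between populations that were higher in differentiated cells was close to even and turned direction. At P0, from 54.8%, it became 45.3% with CGIs of 35 CpGs and 46.5% without bins of 10 or more copies. At P21, from 45.7%, it became 74.1% over 30 points, 52.3% after thinning and 52.8% with shifted bins.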
